A study of Homo sapiens with 6 samples.

Results

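The genes described here are 10 genes of the endoplasmic reticulum (ER) unfolded protein response (UPR), measured by RNA-seq in NCI-H660 (H660) cells with and without induced silencing of MUC1. Members were chosen by name, as the entries of the count table whose gene symbol was HSPA5, HSP90B1, DNAJB9, XBP1, ERN1, HERPUD1, SDF2L1, PDIA4, CALR or ATF6, and all 10 were found among 28008 gene symbols. H660 is an established human neuroendocrine prostate cancer (NEPC) line, and every library came from H660 cells with a hairpin RNA (shRNA), switched on by tetracyclines, that targets MUC1, the gene whose C-terminal subunit is the oncoprotein MUC1-C. DOX-negative cells (n = 3) received the vehicle, 0.1% DMSO, and DOX-positive cells (n = 3) received doxycycline (DOX) at 500 ng/ml, for 7 days per the study's methods. The hairpin and both treatments are given by the series record, whereas the treatment field of all 6 samples reads wild-type, and groups were taken from the sample titles. The model was 1 line with 1 inducible hairpin, and no DOX-treated library without that hairpin was among the samples, so effects of MUC1 silencing and of DOX itself cannot be told apart. The labels say that cells were cultured in triplicate and say no more about how the cultures were separated, so p values measure the spread between these cultures.

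The UPR is the response of a cell to unfolded proteins in the ER lumen. It has 3 sensors in the ER membrane: IRE1 (gene ERN1), which splices the XBP1 mRNA so that it encodes an active transcription factor, ATF6, which is cut by site proteases to release a transcription factor, and PERK (gene EIF2AK3), which phosphorylates eIF2alpha and thereby favours translation of ATF4. Spliced XBP1 and cleaved ATF6 induce ER chaperones, folding enzymes and genes of ER-associated degradation (ERAD). ATF4 is also translated when eIF2alpha is phosphorylated by kinases that respond to other inputs, including mitochondrial stress relayed by OMA1 and DELE1. ATF4 target genes and UPR genes are therefore listed apart below, although the counts do not show which factor acts on a gene. Gene counts show neither XBP1 splicing nor ATF6 cleavage nor phosphorylation, and the values below are therefore levels of the gene's RNA alone. The comparison asks whether the RNA of these UPR genes differed between DOX-positive and DOX-negative cells, beside the RNA of ATF4 target genes in the same libraries.

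The promoters of 6 of the 10 members hold a copy of a sequence through which the UPR is known to act. These stretches are shown as a description only. The elements are known from genes of the UPR, so a match in genes named as UPR genes is not independent of that choice. The ER stress response element (ERSE) was searched as CCAAT, a spacer of any 9 bases and CCACG, the last being the side bound by ATF6. ERSE-II was searched as ATTGG, a spacer of any 1 base and CCACG. Both strands of the 250 bases before each gene's start were searched in RefSeq promoters (GRCh38.p14), and all 10 members had an entry. Each stretch below reads 5′ to 3′ on the gene's own strand, with the matched element in capitals. ERSE was found at HSPA5 (chr9:125241371-125241429, minus strand), at HSP90B1 (chr12:103930196-103930359, plus strand, 2 copies on opposite strands), at XBP1 (chr22:28800583-28800641, minus strand) and at CALR (chr19:12938364-12938422, plus strand). ERSE-II was found at HERPUD1 (chr16:56932005-56932055, plus strand) and at SDF2L1 (chr22:21642094-21642144, plus strand).
HSPA5: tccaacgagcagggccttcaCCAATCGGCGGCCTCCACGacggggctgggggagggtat
HSP90B1: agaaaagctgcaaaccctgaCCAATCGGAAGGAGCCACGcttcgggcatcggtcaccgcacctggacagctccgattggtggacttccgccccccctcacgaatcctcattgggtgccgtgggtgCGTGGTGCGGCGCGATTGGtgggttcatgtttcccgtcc
XBP1: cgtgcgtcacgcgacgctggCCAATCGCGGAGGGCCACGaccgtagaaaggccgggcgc
CALR: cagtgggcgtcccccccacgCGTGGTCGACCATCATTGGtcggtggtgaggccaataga
HERPUD1: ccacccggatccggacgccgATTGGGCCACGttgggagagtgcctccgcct
SDF2L1: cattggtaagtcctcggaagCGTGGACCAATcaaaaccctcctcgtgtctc

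ERSE in this exact form was present in 4 of the 10 members and in 26 of 35116 RefSeq promoters of the same length (0.074%), and ERSE-II was present in 2 members and in 18 promoters (0.0513%). Counted by gene, as for the members, ERSE was in 25 and ERSE-II in 18 of 27305 genes, the members among them. DNAJB9, ERN1, PDIA4 and ATF6 held neither. The UPR element TGACGTGG was in 0 of 10 members and in 0.612% of all promoters, and TGATGNAAT, a form of the composite element bound by ATF4 with a C/EBP partner, was in 0 of 10 members and in 0.888%. Of the ATF4 target genes listed below, only 2 of the 33 with a promoter entry held TGATGNAAT, so its absence from the members does not show a lack of ATF4 input. A match is a description of the letters in this window, and the lack of a match says only that these letters are not there.

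Library totals were between 47620696 and 74061121 counts, and 20253 to 20800 genes had at least 1 count. Counts were compared with edgeR's quasi-likelihood test over 17026 genes that passed its filter on low counts, and a gene was called at a Benjamini-Hochberg adjusted p below 0.05. The targeted gene, MUC1, was measured at 88.2, 90.2 and 79.6 CPM (a share of the library, adjusted with TMM factors) in DOX-negative cells and at 36.7, 37.2 and 29.9 CPM in DOX-positive cells (log2 fold change -1.32, SE 0.096, adjusted p = 0.00017). DOX-positive replicate 2 stood somewhat apart: protein-coding genes held 80.1% of its counts, against 82.2% to 85.7% in the other 5 libraries, and the 10 UPR genes held 0.254% of its counts, against 0.285% to 0.304% in the others. Results that rest on it are therefore given with and without it. Summed over 7 neuroendocrine markers, the level was 1609 to 1814 CPM in DOX-negative and 1342 to 1624 CPM in DOX-positive cells, with 2 of the 7 called lower (NCAM1, -0.50 on the log2 scale, and INSM1, -0.45) and 0 called higher, CHGB being at 0.29 (adjusted p = 0.175) with groups that did not overlap. The 5 luminal prostate markers summed to 2.79 to 3.36 CPM and 2.36 to 3.06 CPM in the 2 groups, with KLK3 at 0 in all 6 libraries. The 6 fibroblast markers summed to 25.2 to 30.6 CPM and 23.5 to 27.9 CPM, with COL3A1 at 0 in all 6 libraries and, of 3 tested, COL1A1 (0.60) and LUM (1.06) called higher in DOX-positive cells and COL1A2 at -0.71 (adjusted p = 0.203), with all 3 DOX-positive libraries below the DOX-negative ones. The part of these markers in the results below was not tested. In bulk RNA, fewer cells of a type and less RNA per cell cannot be told apart.

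None of the 10 UPR genes was called in either direction, where 4.87% of all tested genes were called (829 genes, of which 496, or 2.91% of those tested, were higher and 333, or 1.96%, lower in DOX-positive cells). By edgeR, 0 of the 10 had an unadjusted p below 0.05, against 21.1% of all tested genes. DESeq2 and limma-voom also called 0 members, and each gave 1 member with an unadjusted p below 0.05. The fitted log2 fold changes were positive for 5 members and negative for 5, with a median of 0.0060 beside a median of 0.00034 over all tested genes. The 95% intervals of all 10 members lay between -0.38 and 0.39 on the log2 scale (0.767-fold and 1.31-fold). The 829 called genes had a median absolute log2 fold change of 0.56. Those genes were selected for passing the test, so their median is not a like measure for the members. The 829 calls over all genes fell to 127 without DOX-negative replicate 2, to 58 without DOX-negative replicate 3 and to 375 without DOX-positive replicate 3, and 0 members were called in each of these fits. All 10 members passed the count filter, with 312 to 74034 counts per library on average.

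**Figure D1:**
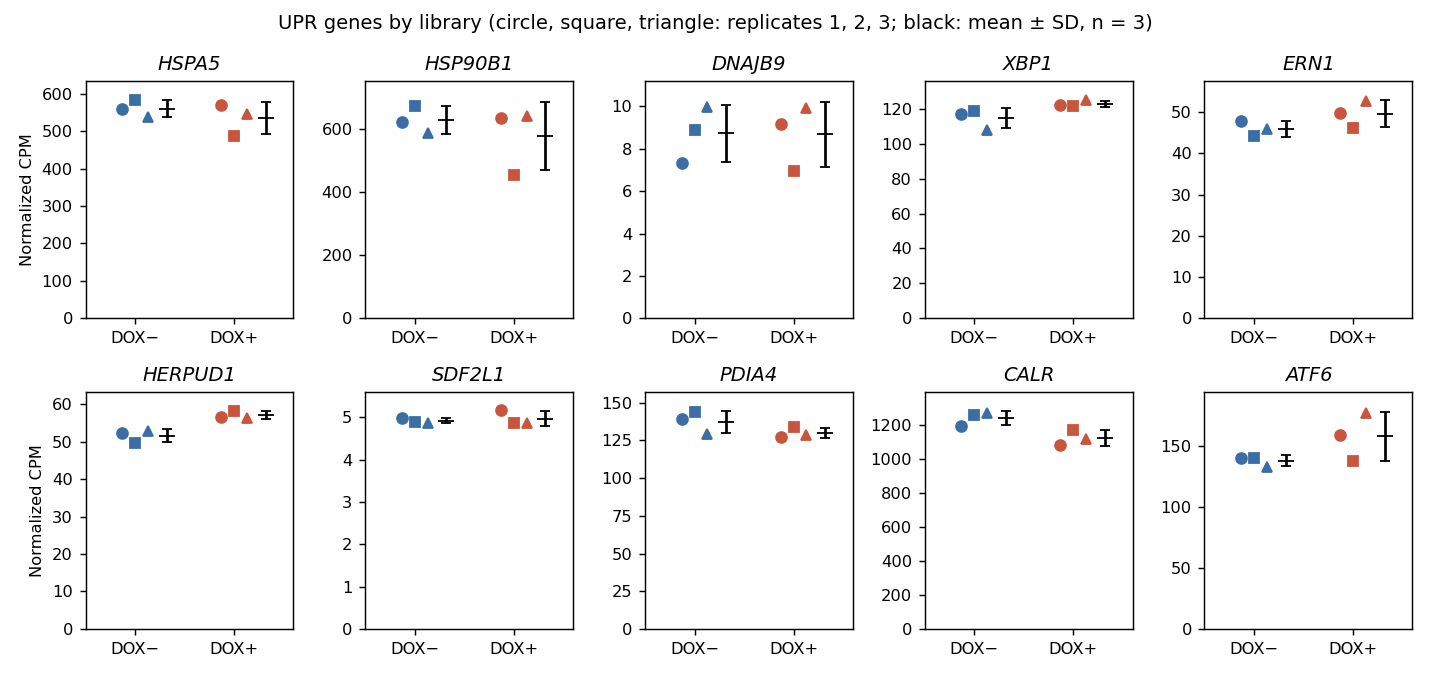
TMM-scaled CPM of the 10 UPR genes in each of the 3 DOX-negative and 3 DOX-positive libraries, with 1 panel per gene, points for libraries and bars for the group mean and SD. The groups overlap in 7 panels and are separate for XBP1 and HERPUD1 (DOX-positive higher) and CALR (DOX-positive lower).

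Among the ER chaperones, HSPA5 (BiP), the lumenal HSP70 that binds unfolded chains and holds the 3 sensors inactive, was at 560.3, 583 and 539 CPM in DOX-negative cells and at 571, 487 and 547 CPM in DOX-positive cells. The groups overlapped, and DOX-positive replicate 2 was the lowest of the 6 libraries. HSPA5 had a fitted log2 fold change of -0.07 (SE 0.079, 95% interval -0.24 to 0.11, adjusted p = 0.682), and it was -0.0016 (SE 0.066) without that library. HSPA5 holds an ERSE in its promoter and is widely used as a reporter of UPR activity.

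HSP90B1 (GRP94), the lumenal HSP90, showed the widest spread within a group among the abundant members, with 624, 674 and 589 CPM in DOX-negative cells and 637, 453 and 643 CPM in DOX-positive cells. Only DOX-positive replicate 2 lay below the range of the DOX-negative libraries. On the log2 scale the fold change was -0.12 (SE 0.12, 95% interval -0.38 to 0.14, adjusted p = 0.609), and it was 0.027 (SE 0.073) without that library. A microRNA gene, MIR3652, overlaps HSP90B1 in the annotation.

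CALR, which encodes calreticulin, the lumenal lectin chaperone that binds calcium and glycoproteins, was the most abundant member. Its CPM were 1199, 1260.1 and 1275 in DOX-negative cells and 1083, 1176 and 1118 in DOX-positive cells, so that all 3 DOX-positive libraries lay below all 3 DOX-negative ones. The log2 fold change was -0.15 (SE 0.071, 95% interval -0.30 to 0.010), with an adjusted p of 0.271. The edge of the interval was thus close to 0, and the difference did not pass the test.

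PDIA4 (ERp72), a protein disulfide isomerase that forms and rearranges disulfide bonds, was at 139, 144 and 129 CPM in DOX-negative cells and at 128, 134 and 128 CPM in DOX-positive cells. The groups overlapped, with DOX-negative replicate 3 inside the DOX-positive range. On the log2 scale the difference for PDIA4 was -0.08 (SE 0.071, 95% interval -0.24 to 0.07, adjusted p = 0.564). All 4 members of this abundant folding group thus had a negative fold change, none of which passed the test, and without DOX-positive replicate 2 HSPA5 was close to 0 and HSP90B1 turned positive.

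The co-chaperones were expressed at lower levels. DNAJB9 (ERdj4), a J-domain partner of BiP and a target of spliced XBP1, was at 7.32, 8.91 and 10.0 CPM in DOX-negative cells and at 9.16, 6.96 and 9.91 CPM in DOX-positive cells. Its spread within each group was larger than the difference between the group means, which were 8.74 ± 1.34 and 8.68 ± 1.53 CPM (SD, n = 3 each). The log2 fold change was -0.0032 (SE 0.15, 95% interval -0.32 to 0.32, adjusted p = 0.993), and its sign turned under several of the settings given in the closing section.

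SDF2L1, a component of the ER chaperone complex that works with J-domain proteins, was the member that varied least between libraries. It was at 4.99, 4.90 and 4.87 CPM in DOX-negative cells and at 5.17, 4.87 and 4.87 CPM in DOX-positive cells. Its fitted log2 fold change was 0.015 (SE 0.11, 95% interval -0.22 to 0.25, adjusted p = 0.956). Its promoter holds ERSE-II, as does that of HERPUD1.

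HERPUD1, a membrane protein that organises the ERAD ubiquitin ligase complex, was at 52.3, 49.7 and 52.8 CPM in DOX-negative cells and at 56.5, 58.2 and 56.3 CPM in DOX-positive cells. The groups did not overlap, and the spread within each group was small (51.6 ± 1.64 and 57.0 ± 1.05 CPM, SD). The log2 fold change was 0.14 (SE 0.071, 95% interval -0.01 to 0.30), with an adjusted p of 0.277. The 2 members with the same element, HERPUD1 and SDF2L1, thus had fitted fold changes of 1.10 and 1.01.

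**Figure D2:**
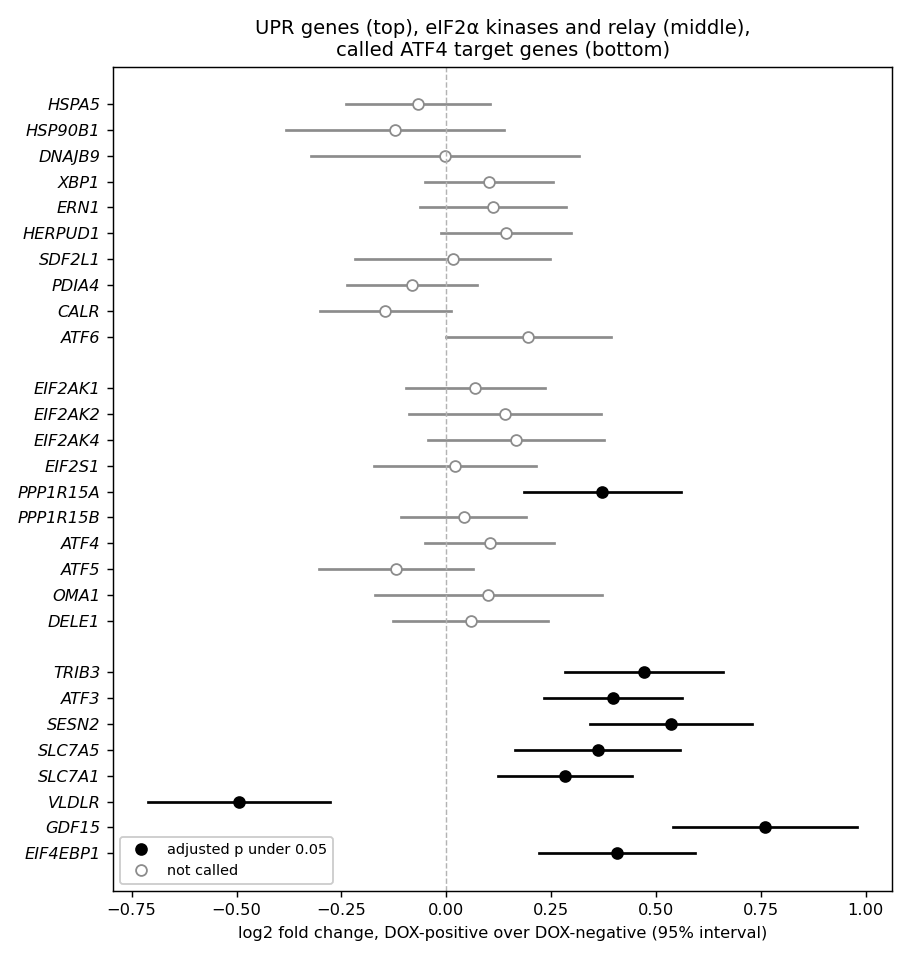
Fitted log2 fold change (DOX-positive over DOX-negative, edgeR) with bars for the 95% interval and a line at 0. Shown are the 10 UPR genes (top), the eIF2alpha kinases and relay genes (middle) and the called ATF4 target genes (bottom). Among the 10 UPR genes every interval includes 0, the widest are those of DNAJB9 and HSP90B1, and the upper end reaches 0.39 for ATF6. The intervals of PPP1R15A (0.19 to 0.56) in the middle and of the called ATF4 target genes exclude 0.

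Among the sensors and transcription factors, XBP1 was at 117, 119 and 108 CPM in DOX-negative cells and at 122, 122 and 125 CPM in DOX-positive cells. All 3 DOX-positive libraries were above all 3 DOX-negative ones, by a log2 fold change of 0.10 (SE 0.070, 95% interval -0.05 to 0.25, adjusted p = 0.443). Both forms of the XBP1 mRNA, unspliced and spliced, are counted together here. XBP1 holds an ERSE and is itself a target of ATF6.

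ERN1, which encodes IRE1, the kinase and endoribonuclease that splices XBP1, was at 47.9, 44.1 and 45.8 CPM in DOX-negative cells and at 49.7, 46.3 and 52.8 CPM in DOX-positive cells. The groups overlapped in 1 library of each. Its log2 fold change was 0.11 (SE 0.080, 95% interval -0.06 to 0.28, adjusted p = 0.469).

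ATF6 had the largest fold change and the smallest p of the 10. It was at 140.4, 140.4 and 133 CPM in DOX-negative cells and at 159, 138 and 177 CPM in DOX-positive cells. DOX-positive replicates 1 and 3 lay above every DOX-negative library, and DOX-positive replicate 2 lay within the DOX-negative range. The log2 fold change was 0.20 (SE 0.090, 95% interval -0.0011 to 0.39, unadjusted p = 0.0511, adjusted p = 0.24). Without DOX-positive replicate 2 ATF6 was called (log2 fold change 0.29, SE 0.065, adjusted p = 0.037), without DOX-positive replicate 3 it was at 0.10 (SE 0.085, adjusted p = 0.559), and with trends in GC content and length removed from the counts it was also called (log2 fold change 0.24, SE 0.056, adjusted p = 0.0213). In the annotation a long noncoding RNA and a pseudogene overlap ATF6, and since the strand setting of the counting is not given in the sources used here, their reads cannot be told apart from those of ATF6.

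Taking the members by library, the groups did not overlap for 3 of 10 (30%), XBP1, HERPUD1 and CALR, against 28.1% of all tested genes. In XBP1 and HERPUD1 the DOX-positive libraries were the higher ones, as in 14.8% of all tested genes, and in CALR they were the lower ones, as in 13.3%. DOX-positive replicate 2 was the lowest library for HSPA5, HSP90B1 and DNAJB9, with deviations from the member's mean of -0.17, -0.40 and -0.29 on the log2 scale, and it was the lowest library for 26.0% of all tested genes. DOX-positive replicate 3 was the highest library for XBP1, ERN1 and ATF6. Without DOX-positive replicate 2, the median log2 fold change of the members was 0.072. In that fit by edgeR, 4142 of all 17258 tested genes had an unadjusted p below 0.05. So did 3 of the 10 members, which were ATF6, CALR (-0.18) and ERN1 (0.16). Those 3 did not share a direction.

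**Figure D3:**
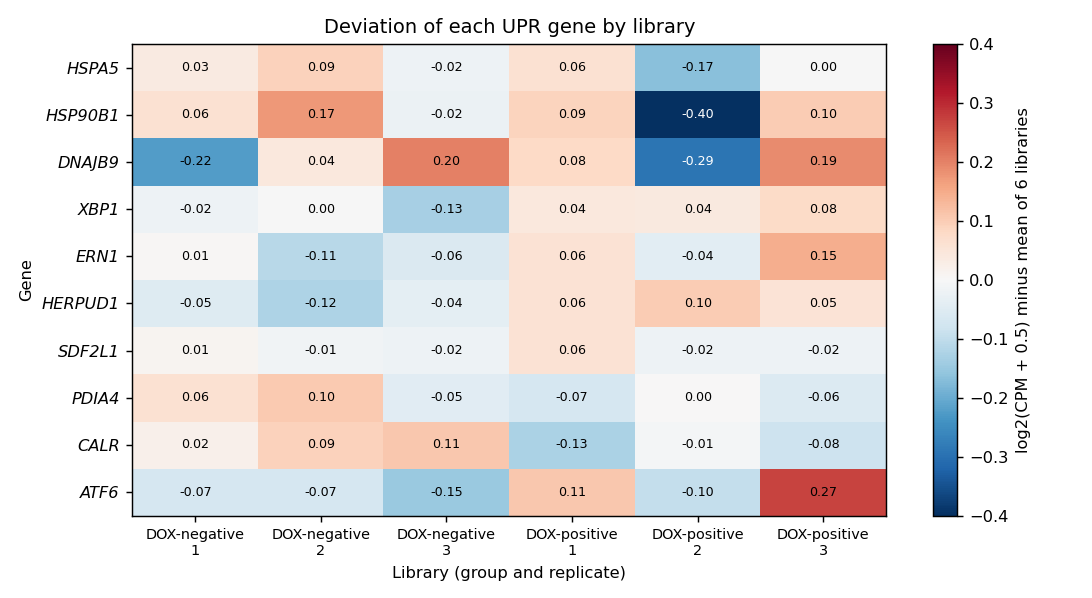
Deviation of each UPR gene's log2(CPM + 0.5) from its own mean over the 6 libraries, 1 row per gene and 1 column per library. DOX-positive replicate 2 is low for HSP90B1 (-0.40), DNAJB9 (-0.29) and HSPA5 (-0.17), while for the other 7 genes its deviation lies between -0.10 and 0.10.

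Levels between genes were compared in TPM, which divide counts by gene length and scale them to the same total in each library. CALR was highest at 362 ± 49.3 TPM (SD over 6 libraries), followed by HSP90B1 at 121 ± 30.3 and HSPA5 at 76.9 ± 15.8. XBP1 (38.6 ± 6.91), PDIA4 (25.5 ± 4.20), HERPUD1 (16.5 ± 2.64) and ATF6 (10.6 ± 2.40) formed the middle of the order. SDF2L1 (3.85 ± 0.68), ERN1 (3.27 ± 0.60) and DNAJB9 (1.96 ± 0.44) were lowest. The order was the same in each of the 6 libraries, with the lumenal chaperones CALR, HSP90B1 and HSPA5 above XBP1 and ATF6, and with the sensor gene ERN1 and the co-chaperone genes SDF2L1 and DNAJB9 below both.

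The spacing was uneven. CALR was 3.01-fold above HSP90B1, and ATF6 was 2.76-fold above SDF2L1, whereas SDF2L1 was only 1.18-fold above ERN1. The ranges over the 6 libraries overlapped between HSP90B1 and HSPA5, XBP1 and PDIA4, PDIA4 and HERPUD1, HERPUD1 and ATF6, and SDF2L1 and ERN1. Each library nevertheless kept the order. The ranges include the scaling that all genes of a library share, so their overlap does not measure the difference within a library. The same 5 short noncoding RNAs (RN7SK, SNORD3A, RN7SL2, RN7SL1 and RPPH1), which mostly lack a poly(A) tail although the labels give an mRNA kit, led every library and held 71.6% to 79.5% of the TPM total. The TPM of all other genes are lowered by that share, by the same factor for every gene of a library, so the groups were compared in counts.

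**Figure D4:**
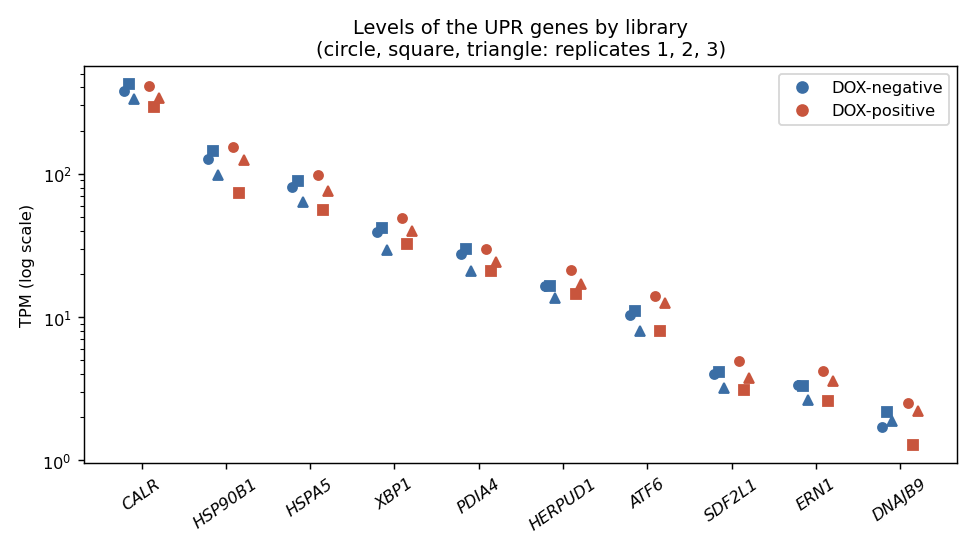
TPM of each UPR gene on a log axis in the 6 libraries, ordered by mean, with DOX-negative and DOX-positive libraries marked separately. Levels run from 362 TPM for CALR to 1.96 TPM for DNAJB9 on average, and the order is the same in every library.

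The other genes of the ER pathway were counted in 4 lists. Over these lists 4 of 102 tested genes were called (3.92%, against 4.87% of all tested genes), 2 in each direction, and the median log2 fold change was 0.024. The groups did not overlap for 25 of the 102 (24.5%, against 28.1%). An absolute log2 fold change over 0.5 was seen in 3 of the 102. The 4 calls fell to 0 when DOX-negative replicate 2 or 3 or DOX-positive replicate 3 was left out, and to 2 without DOX-negative replicate 1.

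Among other sensors, factors and site proteases, 1 of 8 tested genes was called higher and 0 lower, with a median of 0.073. CREB3L2, a membrane-bound transcription factor related to ATF6, was at 42.0, 42.1 and 40.2 CPM in DOX-negative cells and at 51.1, 50.8 and 58.9 CPM in DOX-positive cells (log2 fold change 0.37, SE 0.082, adjusted p = 0.0269). Its relative CREB3 had a log2 fold change of 0.31 (SE 0.093) and an adjusted p of 0.0779. PERK (EIF2AK3), chosen after its values were seen because it is the remaining sensor, was at 32.5, 32.6 and 33.0 CPM in DOX-negative cells and at 34.5, 29.0 and 35.4 CPM in DOX-positive cells. The PERK fold change was 0.013 on the log2 scale (SE 0.091, 95% interval -0.18 to 0.21, adjusted p = 0.954). The RNA of the sensor PERK thus overlapped between groups.

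Of 39 other ER chaperones and folding enzymes, 1 was called higher and 1 lower, with a median of 0.0049. DNAJC1, a J-domain protein of the ER membrane, was at 43.7, 44.7 and 41.5 CPM in DOX-negative cells and at 53.5, 50.2 and 57.1 CPM in DOX-positive cells (log2 fold change 0.31, SE 0.079, adjusted p = 0.0461). ERO1B, an oxidase that recharges protein disulfide isomerases, fell from 22.9, 29.2 and 33.1 CPM to 21.4, 16.2 and 15.6 CPM (log2 fold change -0.67, SE 0.15, adjusted p = 0.0255). Of 25 ERAD genes, 0 were called higher and 1 lower, with a median of 0.046. The gene called was NPLOC4, a cofactor of the VCP segregase that extracts ubiquitinated proteins, which fell from 167, 161 and 151 CPM to 124, 134 and 120.3 CPM (log2 fold change -0.34, SE 0.075, adjusted p = 0.0264). RNF5, a ubiquitin ligase gene, was next by p (log2 fold change -0.23, SE 0.074, adjusted p = 0.0926).

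Of 30 genes of ER translocation and N-glycosylation, 0 were called by edgeR, and 3 had an unadjusted p below 0.05. The smallest p among them belonged to SRP9, a subunit of the signal recognition particle, at 112, 127 and 169 CPM in DOX-negative cells and at 93.2, 67.1 and 94.8 CPM in DOX-positive cells (log2 fold change -0.68, SE 0.17, adjusted p = 0.0645), and to SRPRA, a subunit of its receptor (0.18, SE 0.066, adjusted p = 0.13). SRP9 was called in 7 of 21 alternative settings. Transcripts cut by IRE1 in its decay activity are a further readout of that sensor, and of 5 tested genes 0 were called by edgeR and 2 had an unadjusted p below 0.05, with a median log2 fold change of 0.19 (4 positive and 1 negative). These were HGSNAT (0.24, SE 0.094, adjusted p = 0.163) and SCARA3 (0.29, SE 0.12, adjusted p = 0.182), both with a positive fold change.

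The promoter elements also gave a grouping of genes that did not use the lists. Across all RefSeq promoters, 43 genes held ERSE or ERSE-II, of which 29 were tested here, and 1 of the 29 was called (3.45%, against 4.87% of all tested genes). The fold change was positive for 15 and negative for 14 of them, with a median of 0.015. The gene called was ERO1B, whose values are given above. Of the 11 genes with either element that belonged to the members or the lists, the others outside the members were CANX (0.05), CRELD2 (0.03), PDIA6 (-0.03) and HYOU1 (0.03), each given as a log2 fold change that did not pass the test. CANX, PDIA6 and HYOU1 encode a lectin chaperone, a disulfide isomerase and a lumenal HSP70-type chaperone. This grouping was made after the values of the members were seen.

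**Figure D5:**
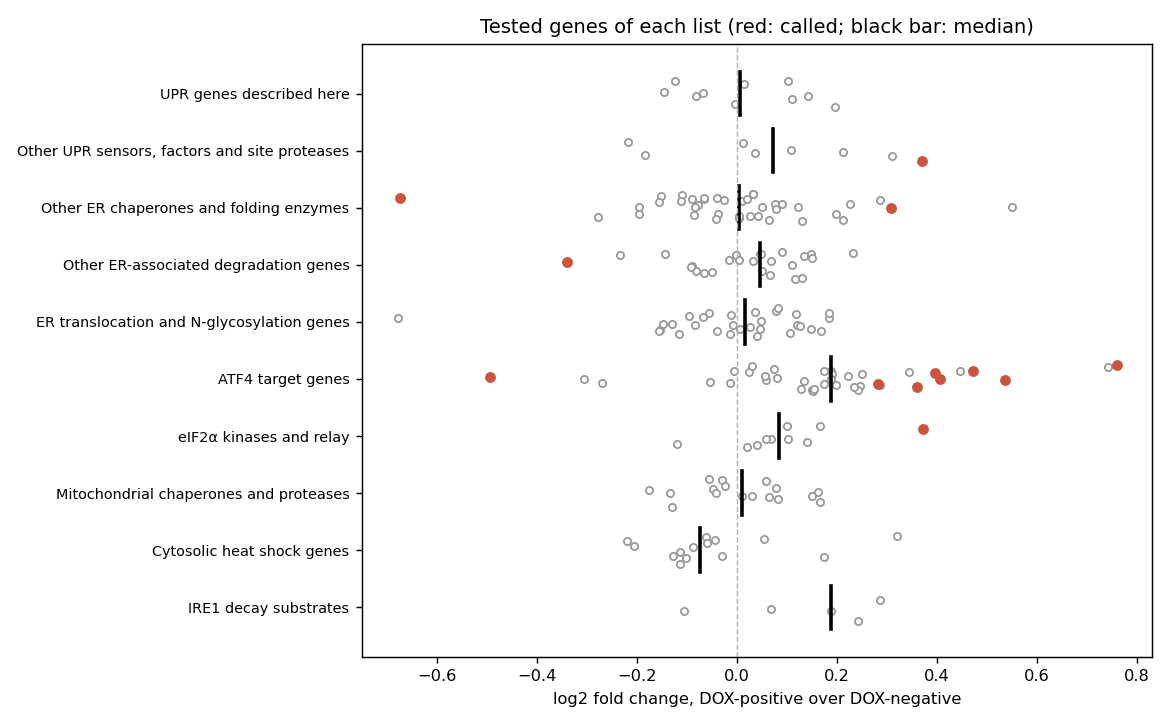
Log2 fold change (DOX-positive over DOX-negative, edgeR) of every tested gene in the UPR set and in each other list, 1 row per list, with called genes marked and a bar at the list's median. The 4 ER lists have medians of 0.0049 to 0.073, the 5 IRE1 decay substrates a median of 0.19 with 0 called, and the ATF4 target list a median of 0.19 with 7 genes called higher and 1 lower.

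Among ATF4 target genes, 7 of 39 tested genes rose and 1 fell, 20.5% of the list against 4.87% of all tested genes, and the median log2 fold change was 0.19. The groups did not overlap for 23 of the 39 (59%, against 28.1%), 21 of them higher and 2 lower in DOX-positive cells. GDF15, a secreted stress cytokine, rose from 134, 125 and 112 CPM to 181, 235 and 214 CPM (1.69-fold, log2 fold change 0.76, SE 0.10, adjusted p = 0.00311). SESN2, a leucine sensor that restrains mTORC1, rose from 58.2, 51.9 and 52.5 CPM to 69.9, 84.4 and 81.6 CPM (1.45-fold, adjusted p = 0.00921). TRIB3, a pseudokinase induced by ATF4 and CHOP, rose from 41.1, 36.6 and 35.8 CPM to 48.4, 55.5 and 53.5 CPM (1.39-fold, adjusted p = 0.0135). In all 3 genes, which were named because they were called with large changes, every DOX-positive library was above every DOX-negative one. VLDLR, a lipoprotein receptor, was the gene called lower, from 64.1, 70.1 and 76.5 CPM to 56.8, 47.9 and 44.9 CPM (log2 fold change -0.49, SE 0.099, adjusted p = 0.019). The other 4 genes that rose, named after their values were seen, were EIF4EBP1 (0.41 on the log2 scale), ATF3 (0.40), SLC7A5 (0.36) and SLC7A1 (0.28). The 8 calls fell to 1 without DOX-negative replicate 2, to 1 without DOX-negative replicate 3 and to 4 without DOX-positive replicate 3, while the list's median was between 0.16 and 0.23 with any 1 library left out. This list is from general knowledge of ATF4 but was chosen with earlier results of these data known. Its shares are therefore a description, not independent support. No difference between it and the UPR genes was tested.

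DDIT3 (CHOP), a factor downstream of ATF4 that is often read beside HSPA5, was chosen after its values were seen. It was at 61.2, 57.3 and 56.5 CPM in DOX-negative cells and at 67.3, 70.1 and 70.4 CPM in DOX-positive cells. The groups did not overlap, and the log2 fold change of 0.25 (SE 0.072, 95% interval 0.09 to 0.40, adjusted p = 0.0696) did not pass the test. Whether the fold changes of CHOP and of HSPA5 (95% interval -0.24 to 0.11) differed was not tested.

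Of the 10 genes that set or relay eIF2alpha phosphorylation, 1 was called higher and 0 lower, with a median of 0.085. PPP1R15A (GADD34), the stress-induced phosphatase subunit that removes the eIF2alpha phosphate, rose from 69.6, 68.1 and 59.5 CPM to 78.1, 88.8 and 88.5 CPM (1.29-fold, log2 fold change 0.37, SE 0.086, adjusted p = 0.0307). ATF4 itself was at 319, 308 and 293 CPM in DOX-negative cells and at 317, 336 and 335 CPM in DOX-positive cells (log2 fold change 0.10, SE 0.070, 95% interval -0.05 to 0.26, adjusted p = 0.442). ATF4 is controlled mainly through translation, which these counts do not show.

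The remaining kinases of eIF2alpha did not pass the test. The heme-sensing kinase EIF2AK1 (HRI), through which DELE1 is known to act, had a log2 fold change of 0.07 (SE 0.076, 95% interval -0.10 to 0.23). The RNA-activated kinase EIF2AK2 (PKR) was at 0.14 (SE 0.11, 95% interval -0.09 to 0.37), and the amino acid sensor EIF2AK4 (GCN2) at 0.17 (SE 0.096, 95% interval -0.04 to 0.38). The mitochondrial relay genes OMA1 and DELE1 had log2 fold changes of 0.10 (SE 0.12) and 0.06 (SE 0.085), the substrate gene EIF2S1 of 0.02 (SE 0.089), the constitutive phosphatase subunit gene PPP1R15B of 0.04, and ATF5, a factor translated like ATF4, of -0.12 (SE 0.084). Their adjusted p values in edgeR were between 0.355 and 0.923.

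Mitochondrial chaperones and proteases, which keep matrix and inner membrane proteins folded, were read beside the ER genes. By edgeR 0 of 17 were called and 0 had an unadjusted p below 0.05, with a median log2 fold change of 0.011. The smallest p belonged to the matrix protease LONP1 (0.16, SE 0.077, adjusted p = 0.252) and the mitochondrial HSP90 gene TRAP1 (0.17, SE 0.083, adjusted p = 0.278). Of 14 cytosolic heat shock genes 0 were called by edgeR, with a median of -0.074. Fold changes were positive for 3 and negative for 11, where 50.1% of all tested genes were positive. The 2 with an unadjusted p below 0.05 were HSPB1, a small heat shock protein (0.32, SE 0.12, adjusted p = 0.135), and FKBP4, an HSP90 co-chaperone (-0.20, SE 0.078, adjusted p = 0.153).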

How the data were processed

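RNA from H660/tet-MUC1shRNA cells was made into TruSeq Stranded mRNA libraries per the labels. The authors deposited raw read counts per gene symbol and TPM (transcripts scaled to a common total) for 25673 of these symbols. STAR, DESeq2 and GRCh38/hg38 are named in the submitters' processing notes. Versions, annotation and strand setting are not given in the sources used here. Groups and replicate numbers were taken from sample titles, 0 columns were left unused, and 0 entries named no gene.

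The test was that of edgeR 4.0.16 under R 4.3.3 (filterByExpr, TMM, robust glmQLFit and glmQLFTest, no covariate), with Benjamini-Hochberg adjustment over all 17026 tested genes. SE and 95% intervals come from the quasi-likelihood fit. Fold changes are DOX-positive over DOX-negative, two-sided. The steps were tested on simulated data. TPM served for levels between genes and for limma fits on log2(TPM + 1) and log2(TPM + 0.1) at a mean TPM of at least 1. Alternatives also comprised other scaling factors and filters, DESeq2 1.42.0, limma-voom (limma 3.58.1), coding genes only, a replicate block and each library left out. Removal of GC and length trends (93.0% of tested genes had a GC value) and rescaled TPM were added after seeing the data. Within-group library pairs differed beyond sampling noise. Chi-square per degree of freedom was 17.9 to 39.2 for DOX-negative pairs and 67.8 to 110.7 for DOX-positive pairs.

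Members and lists were chosen with earlier results of these data known. Named genes were the members, MUC1, all genes of the eIF2alpha list and, per other list, up to 4 called genes with the largest change or else those with the smallest p to make 2. Of the ATF4 list, EPRS1 was not matched. Motifs were searched in RefSeq promoters (GRCh38.p14). Reads shared with the pseudogenes HSPA5P1 and XBP1P1 could not be assessed.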

Additional observations from a re-analysis of the deposited data

How the results depend on the processing

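Across 21 alternatives, 0 of the 10 UPR genes were called in 19, and 1 (ATF6) was called without DOX-positive replicate 2 and with GC and length trends removed. Those fits called 828 of 17258 and 2129 of 15830 tested genes, in that order. The members' median log2 fold change was between -0.028 and 0.072 when 1 library was left out, the latter without DOX-positive replicate 2. MUC1 was called in 20 alternatives, and was at -1.22 (limma, adjusted p = 0.286) on unfiltered log2(TPM + 1). The number of genes called, 829, was 1355 with DESeq2, 2129 with GC and length trends removed, 382 on rescaled TPM, 30 on log2(TPM + 1), 35 on log2(TPM + 0.1) and 0 on unfiltered TPM by limma (1248 at an unadjusted p below 0.05), and 58 to 1035 with 1 library left out (58 and 127 without DOX-negative replicates 3 and 2, and 375 without DOX-positive replicate 3). The share called higher, 59.8%, was 43.3% and 45.7% in the filtered TPM fits. Of the 4 ER lists, 4 genes were called, against 1 on rescaled TPM, 0, 0 and 0 in the other TPM fits by limma, and 0 to 5 with 1 library left out (0 without DOX-negative replicate 2 or 3 or DOX-positive replicate 3, and 2 without DOX-negative replicate 1). With GC and length trends removed, 17 genes of these lists were called, in a fit that called 2129 of all 15830 tested genes. Of the ATF4 targets, 8 were called, against 13 with DESeq2, 18 with GC and length trends removed, 5 on rescaled TPM, 0, 0 and 0 in the other TPM fits, and 1 to 9 with 1 library left out (1 without DOX-negative replicate 2 or 3, and 4 without DOX-positive replicate 3).

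Signs turned for genes near 0. DNAJB9 (-0.0032) was at 0.00089 with no count filter, 0.0083 with limma-voom, 0.018, 0.011 and 0.018 in the TPM fits without rescaling (but -0.0089 on rescaled TPM), 0.047 with GC and length trends removed, and 0.011, 0.096 and 0.13 without DOX-negative replicates 2 and 3 and DOX-positive replicate 2, its range with 1 library left out being -0.12 to 0.13. SDF2L1 (0.015) was at -0.0026 over protein-coding genes only, -0.014 without DOX-positive replicate 1 (range -0.014 to 0.032 with 1 library left out) and -0.039 with GC and length trends removed. HSP90B1 was at 0.027 (range -0.21 to 0.027) and DELE1 (older symbol KIAA0141) at -0.0073 (range -0.0073 to 0.10) without DOX-positive replicate 2, and EIF2S1 at -0.073 and OMA1 at -0.040 (range -0.040 to 0.23) without DOX-positive replicate 3. For all these shifts the cause was not tested. Of the other genes named, DNAJC1 lost its call in 14 of 21 alternatives, ERO1B in 9, CREB3L2, NPLOC4 and VLDLR in 8 each, PPP1R15A in 6, SESN2 and TRIB3 in 5 each and GDF15 in 3. The markers INSM1 and NCAM1 lost theirs in 9 and 5 of 21, and LUM and COL1A1 in 6 and 3 of 19.

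The labels do not say whether same-numbered libraries were paired. Correlations of same-numbered deviations were -0.56, 0.022 and -0.077, and they cannot settle this, since deviations were taken from means of only 3 libraries per group. A replicate block gave 998 called genes, 750 of them shared with the 829, and 0 called members. The smallest mean count among the members was 312, for SDF2L1 (SE 0.11), and the standard errors of all 10 were between 0.070 and 0.15.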
